A study of Sus scrofa with 6 samples.

Results

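The genes described here encode subunits of NuRD, CoREST and NCoR, the corepressor complexes that carry class I histone deacetylases besides the SIN3 complex. They are CHD4, MTA1, MTA2, MTA3, MBD3, GATAD2A, RBBP4, RBBP7, RCOR1 and NCOR1, and a row was taken where the gene name in the deposited table equals one of these symbols. Of the 10 listed genes, 9 were found by name among the 17678 genes of the table. The table lists 3575 genes without a name, and CHD4 is one of them: a reference table of porcine gene names pairs CHD4 with ENSSSCG00000000697, so its values are given from that row, outside the rule by name. RNA-seq libraries were made from 2-cell porcine parthenogenetic embryos at 32 h after activation. NC embryos had received non-specific siRNA and SIN3A KD embryos siRNAs against SIN3A, both injected into metaphase II oocytes before activation. There were 3 replicates per group and 20 embryos per replicate. Activation was by electrical pulses and then incubation with cycloheximide and cytochalasin B, and the injection medium also held cytochalasin B. The methods name 3 siRNAs to different sites of SIN3A and do not say whether they were injected together. All embryos came from abattoir oocytes of Landrace × Yorkshire × Duroc crossbreeds matured in vitro, and all lack a paternal genome. A pool of embryos gives 1 value, so differences between embryos are not seen, and in bulk RNA fewer expressing cells and less RNA per cell cannot be told apart.

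Histone deacetylases remove acetyl groups from histone tails and are brought to chromatin by scaffold proteins. In NuRD, an MTA protein holds HDAC1 or HDAC2, RBBP4 and RBBP7 bind histones, MBD2 or MBD3 and GATAD2 proteins form the bridge, and CHD4 is the helicase that moves nucleosomes. In CoREST, RCOR1 joins HDAC1 or HDAC2 to the demethylase KDM1A, and in NCoR, NCOR1 holds and activates HDAC3. RBBP4 and RBBP7 are also subunits of the SIN3 complex. Pig embryos activate their genome mainly around the 4-cell stage, so that most messenger RNA at the 2-cell stage was stored by the oocyte. The comparison of NC with KD embryos asks whether the messages of these other deacetylase complexes differ once SIN3A message is depleted.

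Several members are paralogs whose reads could be confused if their messages were alike, so the most alike stretches of the coding sequences are shown first. The stretches were read from Sscrofa11.1 at RefSeq coding exons, run 5′ to 3′ along the message and have capitals where the bases differ between the genes. RBBP4 (chr6:89002576-89002665, plus strand) and RBBP7 (chrX:13294467-13294556, minus strand) are shown over 90 bases of exon 11 of 12 in each gene.
RBBP4: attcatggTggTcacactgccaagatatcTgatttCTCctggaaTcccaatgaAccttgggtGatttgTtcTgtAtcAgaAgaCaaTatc
RBBP7: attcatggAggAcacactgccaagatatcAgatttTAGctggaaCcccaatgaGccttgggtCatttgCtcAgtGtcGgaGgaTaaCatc
Over this stretch 16 of 90 bases differed, and over the whole coding alignment 76.7% of 1277 aligned bases were identical. The MTA genes are shown over 60 bases of their exon 2, with MTA1 on an unplaced scaffold from 3474380 to 3474439 (plus strand), MTA2 at chr2:9139167-9139226 (plus strand) and MTA3 at chr3:97781097-97781156 (minus strand).
MTA1: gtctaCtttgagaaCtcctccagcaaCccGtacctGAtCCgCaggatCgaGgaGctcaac
MTA2: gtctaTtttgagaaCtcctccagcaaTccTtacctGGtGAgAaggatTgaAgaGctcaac
MTA3: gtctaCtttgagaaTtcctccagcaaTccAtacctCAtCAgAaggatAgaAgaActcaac
Here 48 of 60 bases were the same in all 3 genes. Among 13 pairs of paralogs of the members and of HDAC1, identity over the aligned coding bases was 64.6% to 76.7%. In 11 of these pairs the messages had no stretch of 31 bases in common. The exceptions were CHD5 with CHD3, which shared 13 such stretches, and CHD5 with CHD4, which shared 14 of the 6902 in CHD4. Stretches that overlap were each counted, so these are not numbers of separate regions. CHD5 itself was near the detection limit, with values from 2.17 to 12.1.

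The values are the authors' normalized abundances, which are read estimates scaled between libraries. The estimated depth was 7800000 to 16000000 reads per library, from the spacing of the low values, and 1 read was worth 0.719 to 1.46 units. Genes with a mean of at least 10 were tested, 11986 in all, by limma on log2(value + 1), where the added 1 makes the differences of scarce messages too small. SIN3A, the targeted gene, lies at chr7:58171821-58246126, and KD embryos retained 8.22% of its NC abundance (log2 fold change -3.81, standard error 0.31, adjusted p = 8.45e-06 from limma). That adjusted p rose to 0.423 without the variance trend and to 0.469 with the robust form of the empirical Bayes step. Of all tested genes, 19 (0.159%) had an adjusted p below 0.05, 7 (0.0584%) with KD higher. This count was 12 without NC replicate 2 or NC replicate 3, 11 without KD replicate 2, and 0 without the variance trend. Of 14 oocyte markers, 11 were found, each with a mean of at least 10, and their summed abundance was 116449 to 130843 in NC and 116309 to 137476 in KD libraries. Of 17 markers of cumulus and granulosa cells, 15 were found, 9 with a mean below 10 and 6 at 0 in some library. Their sum was 368 to 427 in NC and 369 to 440.5 in KD libraries, most of it from GREM1, which gave 219 to 282. Among the rest, COL1A2 reached 53.5, COL1A1 43.7, NR5A1 37.7 and STAR 23.4, and the cumulus expansion genes HAS2, PTX3 and TNFAIP6 were at most 11.14, 2.21 and 1.63. The part of these cells in the results was not tested.

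In NC embryos the members differed widely in level. To compare genes, each abundance was divided by the length of the longest RefSeq mRNA and given per kb. On this scale RBBP7, a histone-binding WD40 protein, was highest with 2827 ± 294 (SD, n = 3), above 99.0% of the 10343 tested genes with a length. Its partner RBBP4 followed with 1072 ± 24.5. The helicase gene CHD4 had 799 ± 27.0, NCOR1 541 ± 46.8 and RCOR1 499 ± 15.4 units per kb. The remaining NuRD subunits were lower, with 324 ± 53.9 for MTA1, 305 ± 21.1 for GATAD2A and 186 ± 10.7 for MTA3. MBD3, which shares its place in NuRD with MBD2, had 47.3 ± 4.46, below the median of 61.4 units per kb over all these genes. MTA2 was the lowest member with 5.80 ± 1.32 units per kb, 487 times below RBBP7, and only 10.4% of genes were lower. Thus 7 of the 10 members stood above the upper quartile of 226 units per kb, and 8 above the median. Per kb, NCOR1 could not be told from RCOR1, nor MTA1 from GATAD2A, because their NC libraries overlapped. The libraries of the other 7 neighbouring pairs in this order did not overlap, in NC or in KD. Such overlap measures the spread between libraries and not the choice of length, on which part of the order rests. Without division by length the NC mean of RBBP4 was 2650 ± 60.5 (SD, n = 3). CHD4 with 5324 ± 180, NCOR1 with 4503 ± 390 and RCOR1 with 2885 ± 88.8 then stood above RBBP4. MTA1, with 924 ± 154, then overlapped with MTA3, with 956 ± 54.8. The NC libraries of GATAD2A, with 1728 ± 119.7, then all lay above those of MTA1, and those of NCOR1 above those of RCOR1. RBBP7 remained the highest member and MTA2 the lowest.

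**Figure D1:**
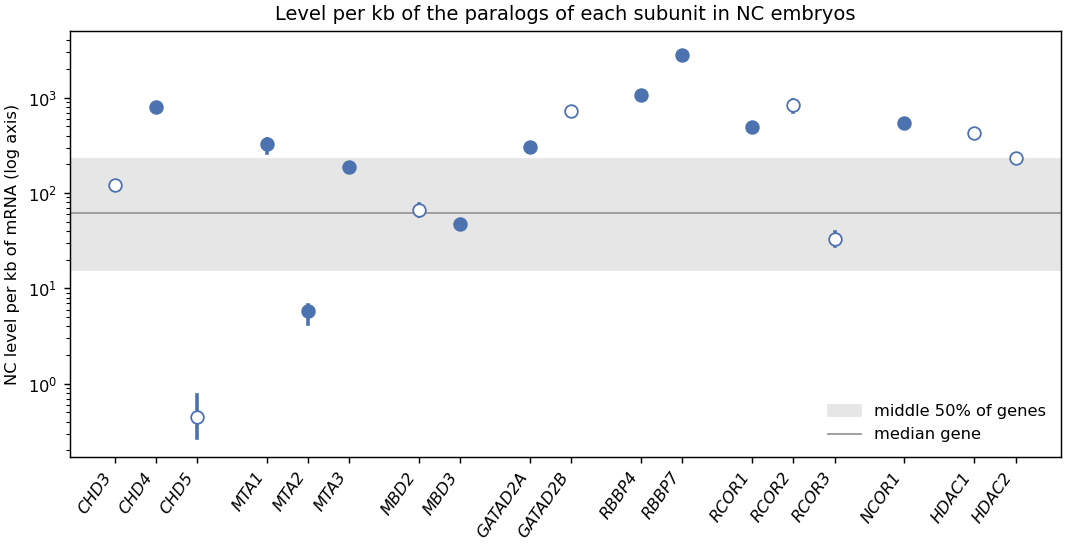
Level per kb of the longest RefSeq mRNA in NC embryos (vertical log axis) for the members (filled circles) and their paralogs (open circles), grouped by family. Circles are means of 3 libraries, vertical lines run from the lowest to the highest library, and the grey band runs between the quartiles of tested genes, from 15.4 to 226 units per kb, with the median gene at 61.4. RBBP7 is the highest point at 2827 and MTA2 the lowest member at 5.80.

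SIN3A stood above every member in NC embryos, with 6059.6 ± 444 (SD, n = 3) units per kb. The 10 members summed to 6606 ± 220 units per kb in NC and to 6647 ± 150.3 in KD embryos. In single libraries, listed here and below in the order of the replicate numbers, this sum was 6841, 6572, 6406 for NC and 6768, 6479, 6694 for KD, and the groups overlapped. SIN3A message was 0.917 times the sum of the 10 members in NC embryos and 0.0749 times the sum in KD embryos. Over the 9 members found by name, without CHD4, it was 1.04 times the sum in NC and 0.0863 times in KD embryos. Whether SIN3A lay above or below the sum in NC embryos thus depended on CHD4. These ratios also rest on the mRNA lengths, and they were not computed without division by length.

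None of the members passed the adjusted threshold in KD embryos. By limma with Benjamini-Hochberg adjustment, 0 of the 9 members found by name had an adjusted p below 0.05, against 0.159% of all tested genes, and the adjusted p was 0.997 for each. At an unadjusted p below 0.05 there was 1, RCOR1, against 4.61% of all tested genes and 2.24% with KD higher. All 10 listed genes passed the filter on low values and were tested. Their log2 fold changes lay between -0.072 and 0.44. The median was 0.033 over the 9 members found by name and 0.084 with CHD4, beside 0.003 over all tested genes. Of the 9, 6 lay above 0 and 3 below, where 50.6% of all genes lay above. For 8 of the 10 listed genes the 95% confidence interval was within 1.5-fold in either direction. The exceptions were MTA2 and MBD3, the members with the lowest values.

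**Figure D2:**
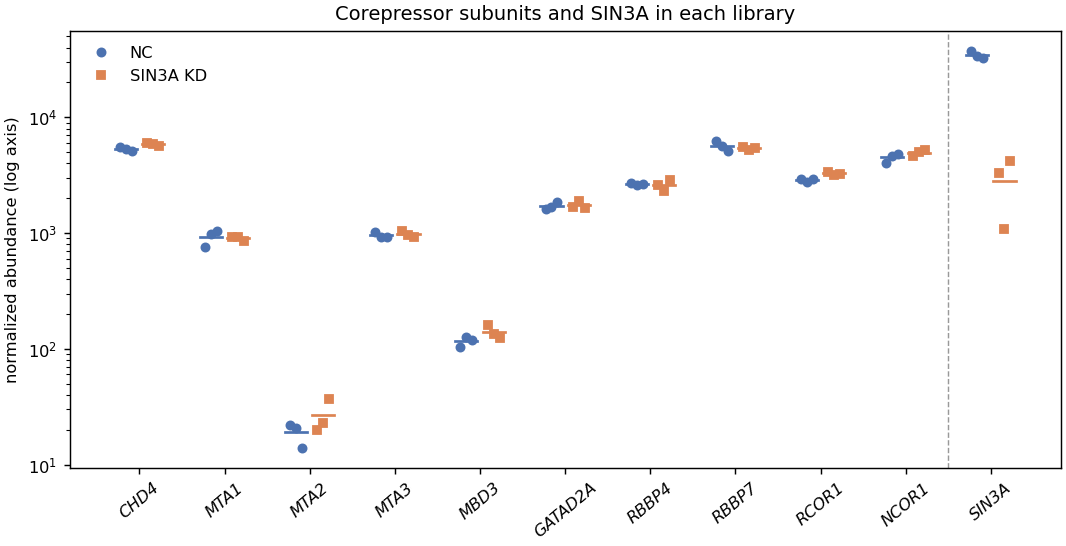
Normalized abundance (vertical log axis) of the 10 members and, right of the dashed line, SIN3A in each library. Circles are the 3 NC libraries, squares the 3 SIN3A KD libraries and horizontal bars their means. NC and KD symbols lie side by side for every member, from MTA2 at 14.0 to 36.9 up to RBBP7 at 5108 to 6291, while SIN3A falls from 32404 or more to 4173 or less.

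Among the NuRD enzymes and scaffolds, CHD4 (chr5:64071627-64105212) had abundances of 5521, 5283, 5167 in NC libraries and 6009.6, 5937, 5647 in KD libraries. Every KD library was above every NC library. The spread within groups was small, with a coefficient of variation of 3.38% in NC and 3.28% in KD. The KD mean of CHD4 was 110.2% of the NC mean, and the log2 fold change was 0.14 (95% confidence interval -0.03 to 0.31, adjusted p = 0.997 from limma). By exact permutation the two-sided p was 0.1, the lowest value possible for 3 libraries against 3. Groups lay apart with KD higher in 4.85% of all tested genes.

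The MTA proteins, which contact HDAC1 and HDAC2 through their ELM2 and SANT domains, had no common direction. MTA1, on an unplaced scaffold, had 753, 972, 1049 in NC libraries and 920.4, 922, 856 in KD libraries. NC replicate 1 was the lowest of the 6 libraries, the groups overlapped, and the coefficient of variation of 16.6% in NC was the highest of the members apart from MTA2. The log2 fold change of MTA1 was -0.026 (95% confidence interval -0.28 to 0.23). MTA3 (chr3:97601403-97782868) had 1019, 917 and 933 in NC and 1046, 971 and 919 in KD embryos, with a log2 fold change of 0.033 (95% confidence interval -0.18 to 0.25). Its groups overlapped almost fully. MTA2 (chr2:9137818-9146966) was near the filter, with 21.9, 20.9 and 14.0 in NC and 20.0, 22.8 and 36.9 in KD embryos, or between 14.3 and 33.7 reads. KD replicate 3 was the highest library and KD replicate 1 lay within the NC range. The log2 fold change of MTA2, 0.44, was the largest of the members, and its 95% confidence interval of -0.38 to 1.27 was the widest. Without KD replicate 3 the log2 fold change was 0.19, with an adjusted p of 0.967 from limma. The interval of MTA2 reaches a 2.41-fold higher level in KD embryos, which could not be told from no difference at this depth.

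MBD3 (chr2:76913880-76923435), a methyl-CpG-binding domain protein, had 104, 126, 119 in NC libraries and 162, 134, 124 in KD libraries. Only KD replicate 3 overlapped with the NC libraries. The KD mean was 120.2% of the NC mean, and the log2 fold change was 0.26 (95% confidence interval -0.13 to 0.64, exact permutation p = 0.2, two-sided, adjusted p = 0.997 from limma). GATAD2A (chr2:58415749-58517308), which links the MBD subunit to CHD4, had 1628, 1696 and 1861 in NC and 1696, 1876 and 1637 in KD embryos. The means of GATAD2A were 1728 ± 119.7 and 1736 ± 124 (SD, n = 3 each), and the log2 fold change was 0.0063 (95% confidence interval -0.20 to 0.21). The groups overlapped over nearly the whole range.

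The histone-binding subunits RBBP4 and RBBP7, which NuRD shares with the SIN3 complex, were not distinguishable between groups. RBBP4 (chr6:88987092-89006815) had 2697, 2581, 2669.8 in NC libraries and 2604, 2322, 2851 in KD libraries. Its KD libraries held both the lowest and the highest value, and its log2 fold change was -0.036 (95% confidence interval -0.23 to 0.16). RBBP7 (chrX:13293278-13317074) had 6291, 5674 and 5108 in NC and 5581, 5219 and 5392 in KD embryos. Here the NC libraries held both extremes, and the log2 fold change was -0.072 (95% confidence interval -0.26 to 0.12). The interval reaches down to 0.834 of the NC level for RBBP7.

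RCOR1, the CoREST scaffold, lies on an unplaced scaffold of the assembly and had 2946, 2783, 2925 in NC libraries and 3377, 3192, 3252 in KD libraries. All 3 KD libraries were above all 3 NC libraries, as they are in 4.85% of tested genes. The mean of RCOR1 was 2885 ± 88.8 in NC and 3274 ± 94.0 in KD embryos (SD, n = 3 each), or 113% of the NC level. The log2 fold change was 0.18 (95% confidence interval 0.0064 to 0.36, unadjusted p = 0.043 and adjusted p = 0.997 from limma), with a two-sided p of 0.1 by exact permutation. RCOR1 was the only member with an unadjusted p below 0.05. It did not pass once all genes were accounted for.

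NCOR1 (chr12:59256868-59392564), the scaffold that binds HDAC3, had 4062, 4647 and 4802 in NC and 4649, 4984 and 5188 in KD embryos. KD replicate 1 was within the NC range and the other KD libraries were above it. The log2 fold change of NCOR1 was 0.14 (95% confidence interval -0.053 to 0.33, adjusted p = 0.997 from limma), and 0.063 without NC replicate 1, the lowest library. HDAC3 itself had a log2 fold change of 0.14 (95% confidence interval -0.13 to 0.41), with a mean of 653 ± 59.2 in NC and 723 ± 105 in KD embryos (SD, n = 3 each).

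**Figure D3:**
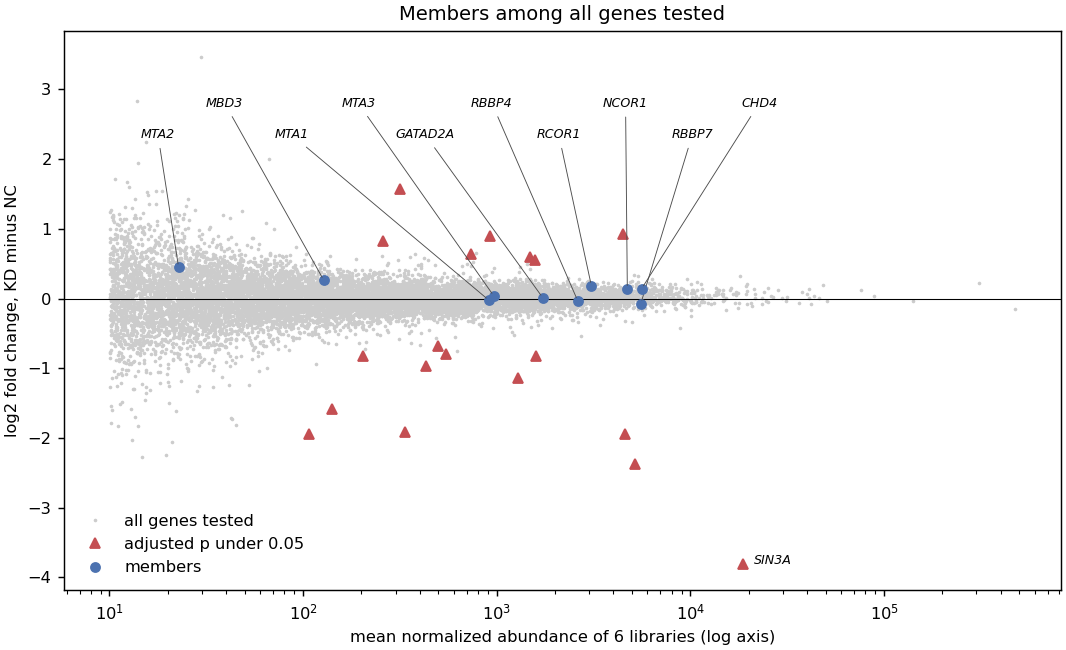
Log2 fold change (KD minus NC) against the mean abundance of the 6 libraries (log axis) for 11986 tested genes in grey, the 19 genes with an adjusted p below 0.05 as red triangles and the 10 members as labelled blue circles. The members lie between -0.072 and 0.44 inside the grey cloud, and SIN3A lies at -3.81.

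Since several members have paralogs that take the same place in a complex, the share of each paralog in the summed level per kb of its family was computed in each library. A share does not depend on the scaling between libraries. In NC embryos CHD4 made up 86.8% ± 0.779 (SD, n = 3) of the CHD3, CHD4 and CHD5 message. MTA2 held 1.14% ± 0.337 of the MTA message, beside 62.6% ± 5.46 for MTA1 and 36.3% ± 5.18 for MTA3. RBBP7 had 72.4% ± 2.05 of the RBBP message and RBBP4 the remaining 27.6%. In the other families a paralog outside the listed genes had the largest share. GATAD2A had 29.5% ± 1.73 of its family beside GATAD2B, MBD3 41.9% ± 2.02 beside MBD2, and RCOR1 36.7% ± 3.56, between RCOR2 with 60.9% and RCOR3 with 2.41%. The length used decides some of these shares. Without division by length RCOR1 had 57.2% of its family in place of 36.7%, MBD3 had 24.0% in place of 41.9%, and MTA1 had 48.5% against 50.5% for MTA3.

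In KD embryos CHD4 had a share of 87.2% ± 0.876, MTA1 of 61.4% ± 0.837, MTA2 of 1.60% ± 0.622 and MTA3 of 37.0% ± 1.04 (SD, n = 3). The shares of the 8 members tested in this way moved by -1.15 to 0.688 percentage points. The groups overlapped in all 9 shares tested, 1 of them HDAC1, and the lowest p of the exact two-sided permutation tests was 0.2 (1 after Benjamini-Hochberg adjustment over the 9). With 3 libraries per group this test cannot go below 0.1, so no share could have passed 0.05. Among the 9 shares tested, MTA2 showed the largest spread relative to its share, from 0.774% in NC replicate 3 to 2.31% in KD replicate 3. HDAC1 moved most, from 64.9% ± 3.20 of the HDAC1 and HDAC2 message in NC to 71.3% ± 3.95 in KD (SD, n = 3 each, exact two-sided permutation p = 0.2). The difference of 6.36 percentage points was 4.64 to 8.61 when single libraries were left out. Its share was 61.5%, 65.5%, 67.8% in NC libraries and 74.1%, 73.0%, 66.8% in KD libraries, so that KD replicate 3 lay within the NC range.

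**Figure D4:**
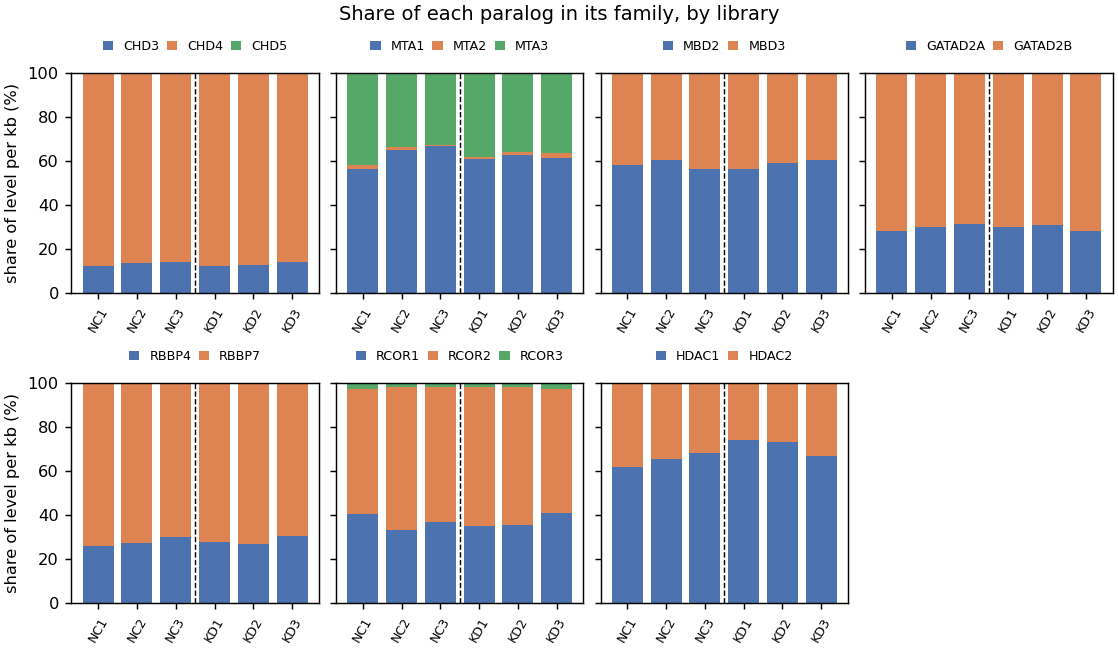
Share in percent of each paralog in the summed level per kb of its family, 1 bar per library, with NC replicates left and KD replicates right of the dashed line in each panel. The bars of the 2 groups look alike in the CHD, MTA, MBD, GATAD2, RBBP and RCOR families, and HDAC1 takes 61.5% to 67.8% in NC and 66.8% to 74.1% in KD libraries.

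A wider list held 49 genes: other subunits of NuRD, CoREST and NCoR, the MIER and MiDAC complexes that also hold HDAC1 and HDAC2, both deacetylases, and proteins that recruit these complexes. Of these, 47 were found and 44 tested. By limma none had an adjusted p below 0.05, against 0.159% of all tested genes, and 3 had an unadjusted p below 0.05, against 4.61%. Their median log2 fold change was 0.069, beside 0.003 over all genes, with 30 above 0 and 14 below, where 50.6% of all genes lay above. The groups lay apart in 3 of the 44, where 9.79% of all tested genes did so. By complex, the median was 0.042 over 6 other NuRD genes, 0.071 over 10 other CoREST genes, 0.13 over 5 other NCoR genes, 0.052 over 8 MIER and MiDAC genes and 0.052 over 13 recruiters.

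The 3 genes with an unadjusted p below 0.05 were REST, MIER3 and CDYL2. REST, the zinc finger repressor that recruits CoREST and SIN3A to neuronal genes, had 49.0, 57.9, 48.1 in NC libraries and 75.05, 88.5, 64.9 in KD libraries, so the groups did not overlap. Its log2 fold change of 0.54 was the highest of the list (95% confidence interval 0.045 to 1.04, unadjusted p = 0.0343 and adjusted p = 0.997 from limma), and its values correspond to 39.6 to 123 reads. MIER3, a scaffold with the same HDAC-binding domains as the MTA proteins, had a mean of 1345 ± 184 in NC and 1630 ± 222 in KD embryos (SD, n = 3 each), with overlapping groups. Its log2 fold change was 0.28, with an adjusted p of 0.997 by limma. CDYL2, a chromodomain protein, had 253, 245 and 242 in NC and 282, 291 and 345 in KD embryos, without overlap. Its log2 fold change was 0.30, with an adjusted p of 0.997 by limma. GPS2, a subunit of NCoR, was named after its values were seen, as the remaining listed gene whose groups lay apart. It was lower in each KD library, with 231, 247 and 261 in NC and 221, 190.4 and 207 in KD, as in 4.94% of tested genes. Its log2 fold change was -0.26, with an adjusted p of 0.997 by limma. TRERF1 had the lowest log2 fold change of the list, -0.53, at values of 7.51 to 22.6. Without NC replicate 2, its highest library, the log2 fold change of TRERF1 was -0.18 and HDAC2 and GPS2 were lower.

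Both deacetylases shared by NuRD, CoREST and SIN3 stayed within the overlap of the groups, with a log2 fold change of 0.17 for HDAC1 and -0.26 for HDAC2 (adjusted p = 0.997 each from limma). Among paralogs of the members, the log2 fold change was 0.085 for CHD3, 0.28 for MBD2, -0.00081 for GATAD2B, 0.17 for RCOR2 and 0.041 for RCOR3, and none passed the adjusted p. MBD2 and MBD3 had similar log2 fold changes of 0.28 and 0.26, each with overlapping groups.

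**Figure D5:**
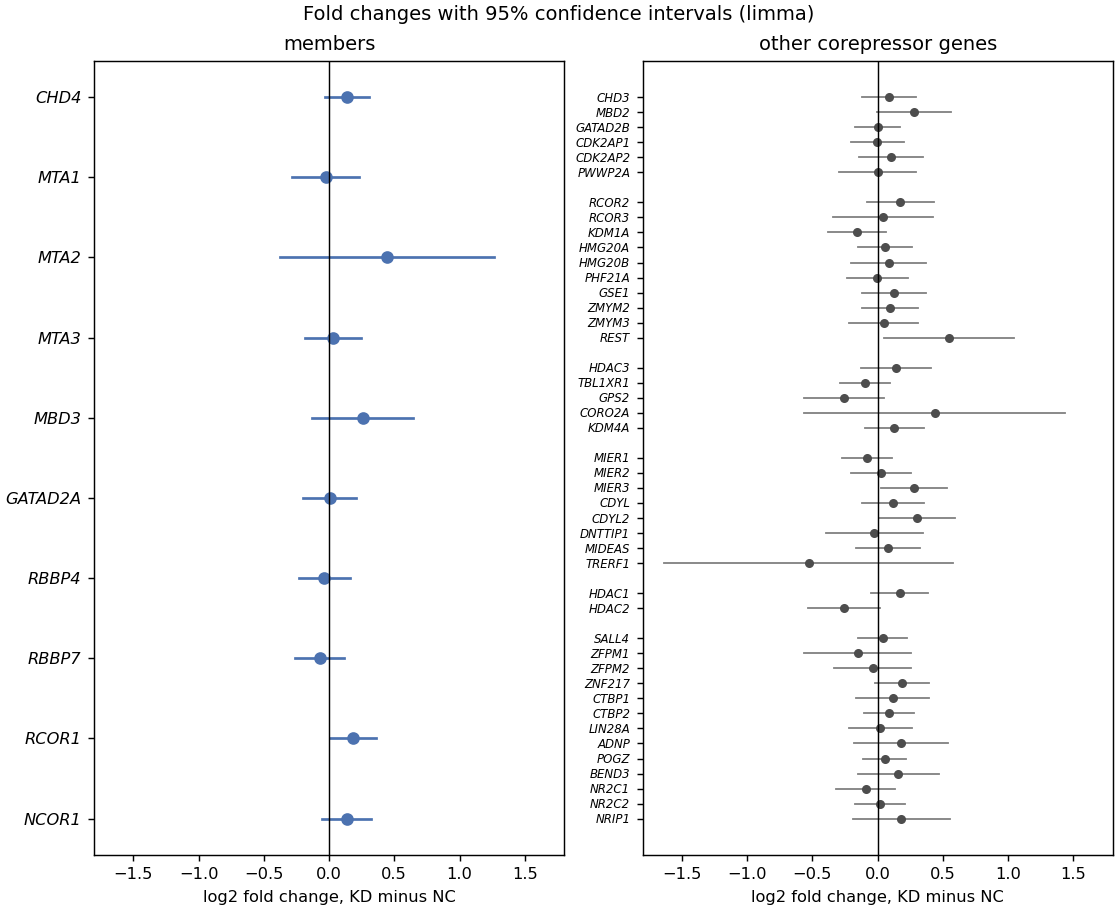
Log2 fold change (KD minus NC, horizontal axis) with 95% confidence interval from limma for the 10 members (left) and 44 other corepressor genes (right), the latter ordered from top to bottom as other NuRD, other CoREST, other NCoR, MIER and MiDAC, HDAC1 and HDAC2, and recruiters. Points stand at the estimate. The intervals of all members but RCOR1 include 0, and those of MTA2, CORO2A and TRERF1, which have low values, are the widest.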

How the data were processed

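The deposited table holds 1 normalized signal value per Ensembl gene and library. According to the methods and the submitters' processing notes, the authors used Salmon 0.14.1 with the Sscrofa11.1 build, and DESeq2; the annotation release is not given in the sources used here. The median ratio of each library to the geometric mean of the genes was 1.01, so the values are scaled between libraries. Of the low values, 61.5% to 71.5% were whole multiples of 1 read within 0.05 reads, too few to rebuild read numbers, and a count model was therefore not used. Groups and replicate numbers came from the sample titles, which do not say whether replicates came from separate oocyte collections, so p-values measure the spread between these pools.

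Genes with a mean of at least 10 were tested with limma 3.58.1 (R 4.3.3) on log2(value + 1), with a variance trend and Benjamini-Hochberg adjustment over all genes, and the fit was tested on simulated data. Single values and shares were compared by exact permutation (scipy 1.17.1). Lengths and sequences came from RefSeq (Sscrofa11.1, aligned with Biopython 1.88). Of the listed genes without a name in the table, those paired with an identifier in a reference table were used through it. The genes named are the members, SIN3A, their paralogs, HDAC3, listed genes with an unadjusted p below 0.05 and the extremes of the list. The members and lists were chosen with earlier results of these data known. Another gene of the lists is not reported here and was left out of their counts. Spike-in mRNAs were not used here, so total messenger RNA per embryo was not assessed. Precision is limited by 3 replicates and, for genes such as MTA2, by few reads. Alternatives tried were adding 0.1 or 10 before the log, testing every gene, raising the filter to 100, TMM-like and quantile scaling, no variance trend, the robust empirical Bayes step, a replicate block, other mRNA lengths and leaving out each library.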

Additional observations from a re-analysis of the deposited data

How the results depend on the processing

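No member and no gene of the wider list passed an adjusted p of 0.05 in any alternative run, where the members had adjusted p values of 0.817 to 1.0 in 149 comparisons (limma). MTA2 was not tested with the filter at 100. Of these comparisons 140 kept the direction, and the 9 that reversed all left out 1 library. Leaving out single libraries gave log2 fold changes between -0.17 and 0.072 for MTA1, -0.016 and 0.079 for MTA3, -0.051 and 0.061 for GATAD2A, -0.11 and 0.041 for RBBP4, -0.15 and 0.0031 for RBBP7, -0.019 and 0.027 for GATAD2B, and -0.068 and 0.18 for RCOR3. Without a change of sign, the values lay between 0.063 and 0.18 for NCOR1 (lowest without NC replicate 1), 0.15 and 0.34 for MBD3 (lowest without KD replicate 1), 0.19 and 0.62 for MTA2 (lowest without KD replicate 3), 0.066 and 0.30 for RCOR2 (lowest without NC replicate 1), 0.060 and 0.26 for HDAC3 (lowest without KD replicate 1), 0.048 and 0.11 for CHD3, 0.19 and 0.40 for MBD2, 0.11 and 0.22 for HDAC1, -0.37 and -0.17 for HDAC2, 0.18 and 0.39 for MIER3, and -0.84 and -0.18 for TRERF1 (nearest 0 without NC replicate 2). The median of the members ranged from 0.017 to 0.077 in these fits and was 0.084 with CHD4, added after seeing the data. CHD4, RCOR1, NCOR1, MBD3 and MTA2 were above 0 in every alternative in which they were tested. The difference in paralog share, in percentage points, ranged without 1 library from -4.27 to 0.81 for MTA1, -1.09 to 3.66 for MTA3, -0.52 to 1.62 for RBBP4, -1.47 to 0.62 for MBD3, -0.80 to 0.93 for GATAD2A and -1.67 to 2.04 for RCOR1. The order of the members by level per kb was the same with the median mRNA length and without each NC library. RBBP4, NCOR1, RCOR1 and MTA3 have 1 RefSeq mRNA each, so the median length could not move their values. Without division by length the order differed, and CHD4, NCOR1 and RCOR1 stood above RBBP4. The count of called genes was 19, from 11 to 19 without 1 library, and 0 without the variance trend, with 622 at an unadjusted p below 0.05. SIN3A, at a log2 fold change of -3.81, had an adjusted p of 0.423 without the trend and 0.469 with the robust step. The cause was not tested. The sample titles do not say whether equal replicate numbers mark paired samples, and the main fit did not use the numbers. Same-numbered libraries had correlations of 0.0872 to 0.111 after subtraction of group means. Other pairs had -0.0828 to -0.0215, and each of the 6 libraries correlated best with its own number. A pairing by replicate number was not tested. With the replicate block 26 genes were called, 0 of them members or in the wider list, and RCOR1 had an adjusted p of 0.879.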
